A study of Mus musculus with 83 samples.

Results

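The genes for collagens, laminins and other basement membrane proteins were followed in single mouse ovarian follicles, vitrified or fresh, at 4 times of induced ovulation. Members were chosen by symbol alone: every gene of the deposited table named as a collagen chain (Col, a number, a, a number), a laminin chain (Lama, Lamb or Lamc with a number) or a nidogen (Nid1, Nid2), together with Hspg2, Agrn, Fn1, Sparc, Bgn, Fbn1, Ogn and Postn. This gave 59 of 21572 genes: 10 fibrillar collagens, 22 basement membrane genes, 21 other collagens and 6 interstitial and matricellular genes. Of these, 36 had enough reads to be tested, namely 8 fibrillar collagens, 17 basement membrane genes, 5 other collagens and all 6 interstitial and matricellular genes. The other 23 had too few reads for the expression filter, which works on CPM (counts scaled by library size). They include Col4a3, Col4a4, Col4a6, Lama3, Col5a3 and Col11a2. A gene could pass the expression filter through the group where it was high, so the counts below are counts over the 36 tested genes, not over all members.

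All follicles came from wild-type CD-1 mice and, vitrified or fresh, had grown encapsulated in 0.5% alginate for 8 days in medium with recombinant FSH at 10 mIU per ml. At a diameter of 300 to 350 µm they were freed with alginate lyase. They were then moved to maturation medium with serum, hCG at 1.5 IU per ml, EGF at 10 ng per ml and recombinant FSH at 10 mIU per ml, which all groups shared. Each Smart-Seq2 library (full-length cDNA, no molecular identifiers) held 1 follicle. Vitrified follicles were collected at 0 h (15 follicles), 1 h (14), 4 h (7) and 8 h (12), and fresh follicles at 0 h (18), 1 h (6), 4 h (7) and 8 h (4). The labels name neither the animals nor the culture runs, so every p-value measures only the spread between these follicles.

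Basement membranes are sheets built from networks of laminin trimers (an α, a β and a γ chain each) and of type IV collagen, linked by nidogens and by the proteoglycans perlecan (Hspg2) and agrin (Agrn). In the ovary such a sheet, the follicular basal lamina, separates granulosa cells from the surrounding theca. Fibrillar collagens, chiefly types I and III, form the cables of the theca and stroma, and the follicle wall is remodelled when the follicle ruptures at ovulation.

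The libraries carry 3 name prefixes, here called sets. The 0 h set holds all 0 h follicles and no others, so the change between 0 h and 1 h cannot be told apart from a change of set. The shared set holds all later fresh follicles and 5, 7 and 3 vitrified follicles at 1 h, 4 h and 8 h. The vitrified-only set holds 9 vitrified follicles at 1 h and 9 at 8 h. Vitrified and fresh follicles were compared within a set. Inside the shared set sample numbers recur between vitrified and fresh 1 h follicles (4 numbers) and between fresh 8 h and 4 h follicles (3 numbers), so these groups may come from separate runs, and those comparisons could then not be told apart from a change of run. Libraries held 682200 to 6504588 estimated counts. No pair of libraries was identical. The 11 granulosa markers gave median sums of 63361 CPM in vitrified and 55087 CPM in fresh follicles at 0 h, where the 16 theca and stroma markers summed to 343.74 and 331.37 CPM and the 9 immune markers to 1.61 and 14.8 CPM. Of the immune markers, the pan-leukocyte gene Ptprc did not exceed 0.594 CPM in vitrified or 0.531 CPM in fresh follicles at 0 h, while the macrophage gene Lyz2 averaged 7.76 and 22.3 CPM. In whole follicles, fewer cells of a type and less RNA per cell cannot be told apart.

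Compared per length, in TPM (transcript abundance scaled for gene length and depth, from the deposited log2 values), the matrix of the follicle at 0 h was led by Sparc, a collagen-binding matricellular protein. Its level was 149 ± 65.8 TPM in vitrified and 205 ± 79.1 TPM in fresh follicles (SD, n = 15 and 18). The small proteoglycan Bgn followed with 30.7 ± 34.1 and 72.2 ± 75.6 TPM. Among fibrillar collagens Col3a1 was highest, at 27.5 ± 28.4 and 53.8 ± 39.8 TPM. Among basement membrane genes the laminin β chains Lamb1 (21.2 ± 10.6 and 32.6 ± 15.4 TPM) and Lamb2 (20.6 ± 6.58 and 21.8 ± 7.29 TPM) stood above Hspg2, Col4a1 and the laminin α chains. Lama1, an α chain, had 1.51 ± 0.967 TPM in vitrified and 1.44 ± 0.464 TPM in fresh follicles. These SDs are often as large as the means, so most neighbours in this order did not differ beyond their spread.

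**Figure D1:**
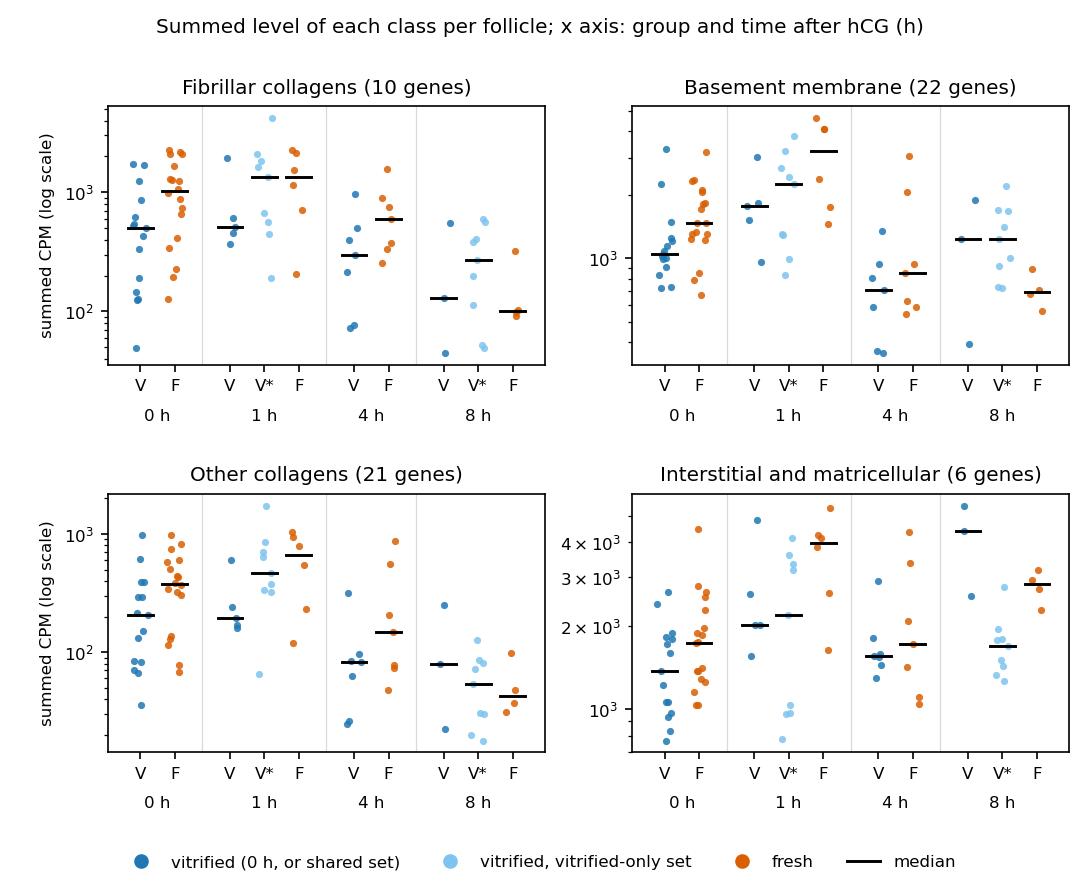
Summed CPM (log axis) of each class by time after hCG, 1 point per follicle; V is vitrified, V* the vitrified-only set and F fresh, with a bar at the median. Fibrillar sums had a median of 129 CPM in vitrified follicles of the shared set and 101 CPM in fresh follicles at 8 h.

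Summed over their members, the fibrillar and the other collagens had their lowest medians at 8 h in both kinds of follicle within the shared set. In vitrified follicles the fibrillar sum had medians of 502 CPM at 0 h, 510.0 CPM at 1 h and 300.1 CPM at 4 h, and 129 CPM at 8 h within the shared set. In fresh follicles it had medians of 1029.6, 1335, 601 and 101 CPM at 0, 1, 4 and 8 h. The basement membrane sum had medians of 712 CPM in vitrified and 855 CPM in fresh follicles at 4 h, and of 1229.5 CPM in vitrified follicles of the shared set and 693 CPM in fresh follicles at 8 h. The interstitial and matricellular sum, which holds Sparc, had medians of 4394 CPM in the 3 vitrified follicles of the shared set and 2823 CPM in fresh follicles at 8 h, above the 1556 and 1710.2 CPM at 4 h. The 9 follicles of the vitrified-only set had a median of 1693 CPM of that sum at 8 h, against 2187 CPM at 1 h. Their fibrillar sum had a median of 272 CPM at 8 h, against 1354.5 CPM at 1 h. Ranges within a group were wide, for example 44.8 to 549 CPM in vitrified and 91.6 to 318 CPM in fresh follicles for the fibrillar sum at 8 h. These sums weigh abundant genes most and were not tested.

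At 1 h against 0 h, 3 of 17 tested basement membrane genes were higher and 1 lower in vitrified follicles, beside 21.5% and 22% of all genes. In fresh follicles 7 were higher and 0 lower, beside 19% and 23.1% of all genes. The tests were made gene by gene with edgeR, and adjusted p-values are Benjamini-Hochberg values over all 11889 genes tested; "called" means an adjusted p under 0.05, and differences are log2 fold changes ± SE. At 1 h against 0 h, 6 of 36 tested members were higher and 1 lower in vitrified follicles, against 21.5% of all genes higher and 22% lower. The lower member was the basement membrane gene Lama4 (-0.97, edgeR adjusted p = 0.00888), a call kept in 12 of 13 alternatives. In fresh follicles 12 were higher and 0 lower, against 19% and 23.1% of all genes. Of the 6 higher in vitrified follicles 5 were among the 12 of fresh follicles: Agrn, Col24a1, Fn1, Lamc1 and Sparc. Basement membrane genes made up 3 of the 6 and 7 of the 12, the 7 being Col4a1, Col4a2, Nid1, Hspg2, Agrn, Lamb1 and Lamc1. Their class median was 0.729 in vitrified and 0.785 in fresh follicles, beside -0.05 and -0.112 over all genes. The fibrillar median was 0.354 in vitrified and 0.338 in fresh follicles, and Col24a1 alone of that class was called. In vitrified follicles the calls of Agrn, Fn1, Lama1 and Sparc were each lost without 1 or another 1 h follicle, at differences of 0.39 to 1.09. The call of Lama1 was also lost without the vitrified 0 h libraries of 682200 and 723087 counts. Endothelial markers moved alongside, with 1 of 7 tested called higher in vitrified (median 1.25) and 5 in fresh follicles (median 1.63), and their part in the result was not tested.

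This step also depends on the scaling, which edgeR's TMM method sets. With total counts in place of TMM the median of all genes itself moved to -0.654 in vitrified and -0.597 in fresh follicles, and the share of all calls that were higher to 19% and 18%, beside 49.3% and 45.1%. Member calls were then 2 higher and 2 lower in each. The fibrillar medians turned to -0.27 and -0.133, while the basement membrane medians were 0.122 and 0.311.

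Between 1 h and 4 h, within the shared set, most tested laminin genes fell. At 4 h against 1 h, 2 members were higher and 17 lower in vitrified follicles, and 1 was higher and 17 lower in fresh follicles. Of all genes, 20.6% were higher and 25.9% lower in vitrified follicles, and 21.9% and 24.5% in fresh follicles. The lower calls included 11 of 17 basement membrane genes in vitrified and 10 in fresh follicles, and 2 of 8 fibrillar collagens in each. The overlap was 16 genes, which is 94.1% of each list: Lama1, Lama2, Lama4, Lamb1, Lamb2, Lamc1, Lamc3, Col4a5, Hspg2 and Agrn of the basement membrane, and Col1a2, Col5a1, Col6a1, Col6a3, Fbn1 and Ogn. The basement membrane median was -1.34 in vitrified and -1.28 in fresh follicles, and the fibrillar median -1.29 and -1.03, beside -0.107 and -0.0276 over all genes. In vitrified follicles 1 follicle, replicate 3 at 1 h, carries the calls of Col1a2, Col6a1, Fbn1, Hspg2 and Ogn, which without it had differences of -0.98 to -1.75 and missed the threshold. The theca and stroma markers had median sums at 4 h and 1 h of 152.04 and 669.04 CPM in vitrified follicles. In fresh follicles the sums were 162.8 and 455.12 CPM, and 4 of 12 tested were lower in each. That list was mixed. Mean Cyp17a1 at 4 h and 1 h was 51.3 and 351 CPM in vitrified and 19.2 and 158 CPM in fresh follicles. Mean Pdgfra was 7.23 and 3.25 CPM, and 11 and 8.36 CPM. Of 10 tested granulosa markers, 9 were lower in vitrified (median -4.01) and 8 in fresh follicles (median -4.06). The part of these cell types in the result was not tested.

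Between 4 h and 8 h, 24 of 36 members had a difference above 0 in vitrified follicles, whereas 31 were below 0 in fresh follicles. The fibrillar median was -0.11 in vitrified and -1.83 in fresh follicles, and the basement membrane median 0.421 and -0.574. Over all genes the medians were 0.167 and 0.124. In vitrified follicles 4 were called higher (Lama1, Lamb1, Col15a1 and Sparc) and 1 lower (Col24a1), against 22% and 15% of all genes. In fresh follicles 2 were called higher (Lama1 and Lamc1) and 5 lower (Col24a1, Col1a2, Col6a1, Col6a2 and Hspg2), against 20.8% and 15.7%. None of these shares of the members exceeded that of all genes. With total counts the median of all genes moved to 0.734 in vitrified and 0.753 in fresh follicles, and 8 and 3 members were then higher and 1 and 2 lower. The share of all calls that were higher was 85% and 87.7% under that scaling, beside 59.4% and 57%. The calls of Lama1, Lamb1 and Col15a1 in vitrified follicles, and of Lama1, Col1a2, Col6a2 and Hspg2 in fresh follicles, were each lost without single 8 h follicles: Lamb1 had 0.71 and Col15a1 1.27 without vitrified replicate 2, and Hspg2 had -1.05 without fresh replicate 2. Without vitrified replicate 2, 1 member was higher and 2 lower in vitrified follicles.

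Over the whole span from 1 h to 8 h the fall was broad. In the vitrified-only set 20 of 36 members were lower and 2 higher (Col12a1 and Lamc1), while 27.4% of all genes were lower and 32% higher. In fresh follicles, which share no library with that comparison, 26 were lower and 0 higher, against 23.5% and 26.2% of all genes; 19 of the 20 were among the 26. In fresh follicles the 26 comprised 5 of 8 fibrillar collagens, 14 of 17 basement membrane genes, 4 of 5 other collagens and 3 of 6 interstitial and matricellular genes. The fibrillar median was -1.72 in the vitrified-only set and -2.58 in fresh follicles, and the basement membrane median -0.812 and -2.21, beside 0.112 and 0.0504 over all genes. With total counts the all-gene median moved to 0.893 in the vitrified-only set and 0.673 in fresh follicles, and the share of all calls that were higher to 80.3% and 77.3%, beside 53.9% and 52.7%. Member calls were then 7 higher and 13 lower in the vitrified-only set, and 1 higher and 19 lower in fresh follicles. The theca and stroma markers had median sums at 8 h and 1 h of 66.814 and 477.44 CPM in the vitrified-only set. In fresh follicles the sums were 86.295 and 455.12 CPM. Of 10 tested granulosa markers, 9 were lower in the vitrified-only set (median -3.64) and 9 in fresh follicles (median -3.99). The part of these cell types in the result was not tested. The fresh 8 h group has only 4 follicles and is compared here with the same 1 h follicles as in the 4 h comparison.

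**Figure D2:**
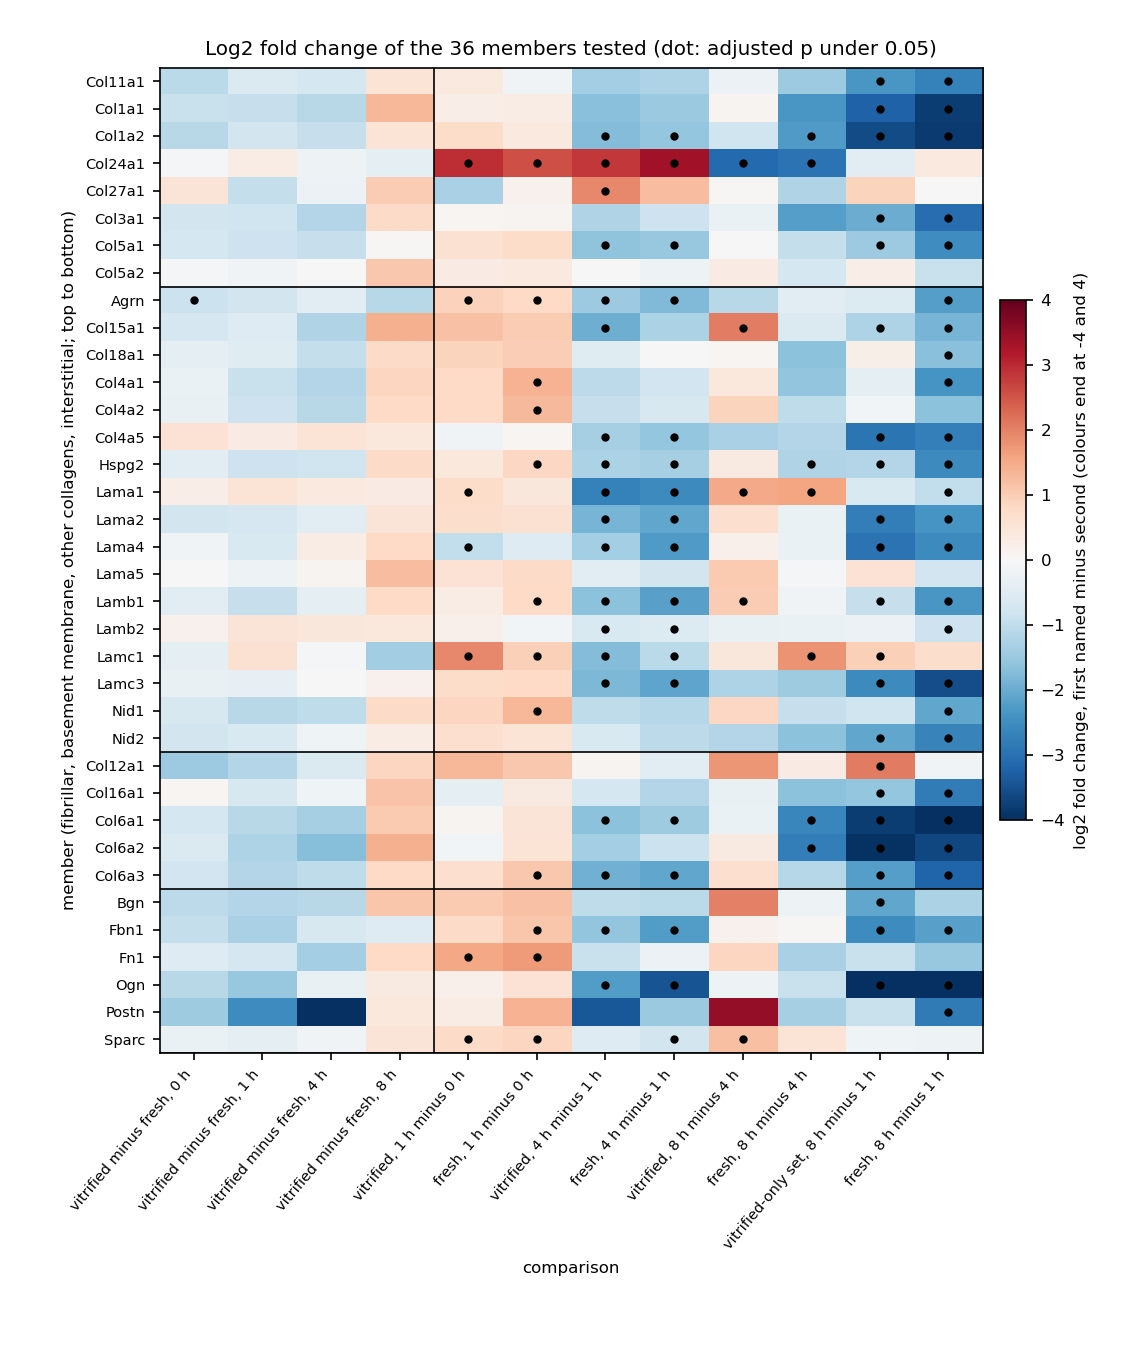
Log2 fold changes of the tested members by class for the comparisons in time and by vitrification, from edgeR. Basement membrane medians at 4 h against 1 h were -1.34 in vitrified and -1.28 in fresh follicles.

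Among the 8 tested fibrillar collagens, Col1a1, Col1a2, Col3a1, Col5a1 and Col11a1 were lower at 8 h than at 1 h in both the vitrified-only set and fresh follicles. Col1a1 (chromosome 11, 94936224 to 94953042, plus strand) encodes the main chain of type I collagen. In the vitrified-only set it had 2.88, 32.5 and 41.8 CPM (lowest, median, highest) at 8 h, against 21.7, 191 and 578 CPM at 1 h. Fresh follicles had 11.7, 10.3, 35.2 and 8.1 CPM at 8 h, against 32.2, 253 and 385 CPM at 1 h. The lowest 1 h follicle lay below the highest 8 h follicle in both, so the groups overlapped. The differences were -3.23 ± 0.71 in the vitrified-only set (edgeR adjusted p = 6.53e-05) and -3.80 ± 1.07 in fresh follicles (edgeR adjusted p = 0.00216). Col1a2, the partner chain of type I collagen, fell by 3.58 and 3.82 on the log2 scale. Col3a1, the sole chain of type III, fell by 1.98 and 3.03. Of the type V chains, which help to set fibril diameter, Col5a1 fell by 1.47 and 2.48, while Col5a2 had 0.27 ± 0.48 and -0.90 ± 0.67 and was not called. Col11a1, a type XI chain, fell by 2.34 and 2.69. In the vitrified-only set the calls of Col3a1 and Col5a1 were each lost in 3 of 6 alternatives, with differences as small as -0.81 and -0.18.

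Col24a1 (chromosome 3, 145292472 to 145552011, plus strand), a fibrillar collagen gene known from bone and cornea, was low at 0 h and had its highest medians at 4 h. In vitrified follicles it had 0, 1.28 and 2.97 CPM (lowest, median, highest) at 0 h, then 14.9, 12.6, 12.7, 6.06 and 7.82 CPM at 1 h, then 12.6, 85.2 and 186 CPM at 4 h, and 3.73, 16.3 and 5.85 CPM at 8 h, all but the 0 h follicles in the shared set. The values in fresh follicles were 0, 0.973 and 4.74 CPM at 0 h, then 2.91, 7.16 and 22.5 CPM at 1 h, then 51.9, 70.0 and 142 CPM at 4 h, and 6.94, 7.36, 2.45 and 28 CPM at 8 h. Every fresh 4 h follicle lay above every fresh 1 h and 8 h follicle, whereas in vitrified follicles the lowest 4 h value lay within the range at 1 h and at 8 h. At 4 h against 1 h the difference was 2.84 ± 0.58 in vitrified (edgeR adjusted p = 2.85e-05) and 3.36 ± 0.56 in fresh follicles (edgeR adjusted p = 6.84e-07). At 8 h against 4 h it was -3.10 ± 0.72 (edgeR adjusted p = 0.000332) and -2.96 ± 0.62 (edgeR adjusted p = 9.34e-05). At 1 h against 0 h it was 2.95 ± 0.55 (edgeR adjusted p = 6.87e-06) and 2.58 ± 0.53 (edgeR adjusted p = 3.96e-05), in a step that also changes the library set; on the log2(TPM + 1) scale of limma those calls were lost, at 0.14 and 0.13. The peak remained low per length, at 1.01 ± 0.822 TPM in vitrified and 1.14 ± 0.473 TPM in fresh follicles at 4 h (SD, n = 7 each). It was the only member called higher at 4 h in both kinds of follicle; Col27a1, another fibrillar collagen, was called in vitrified follicles at 1.93 ± 0.73 (edgeR adjusted p = 0.0229) and had 1.22 ± 0.66 in fresh follicles.

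**Figure D3:**
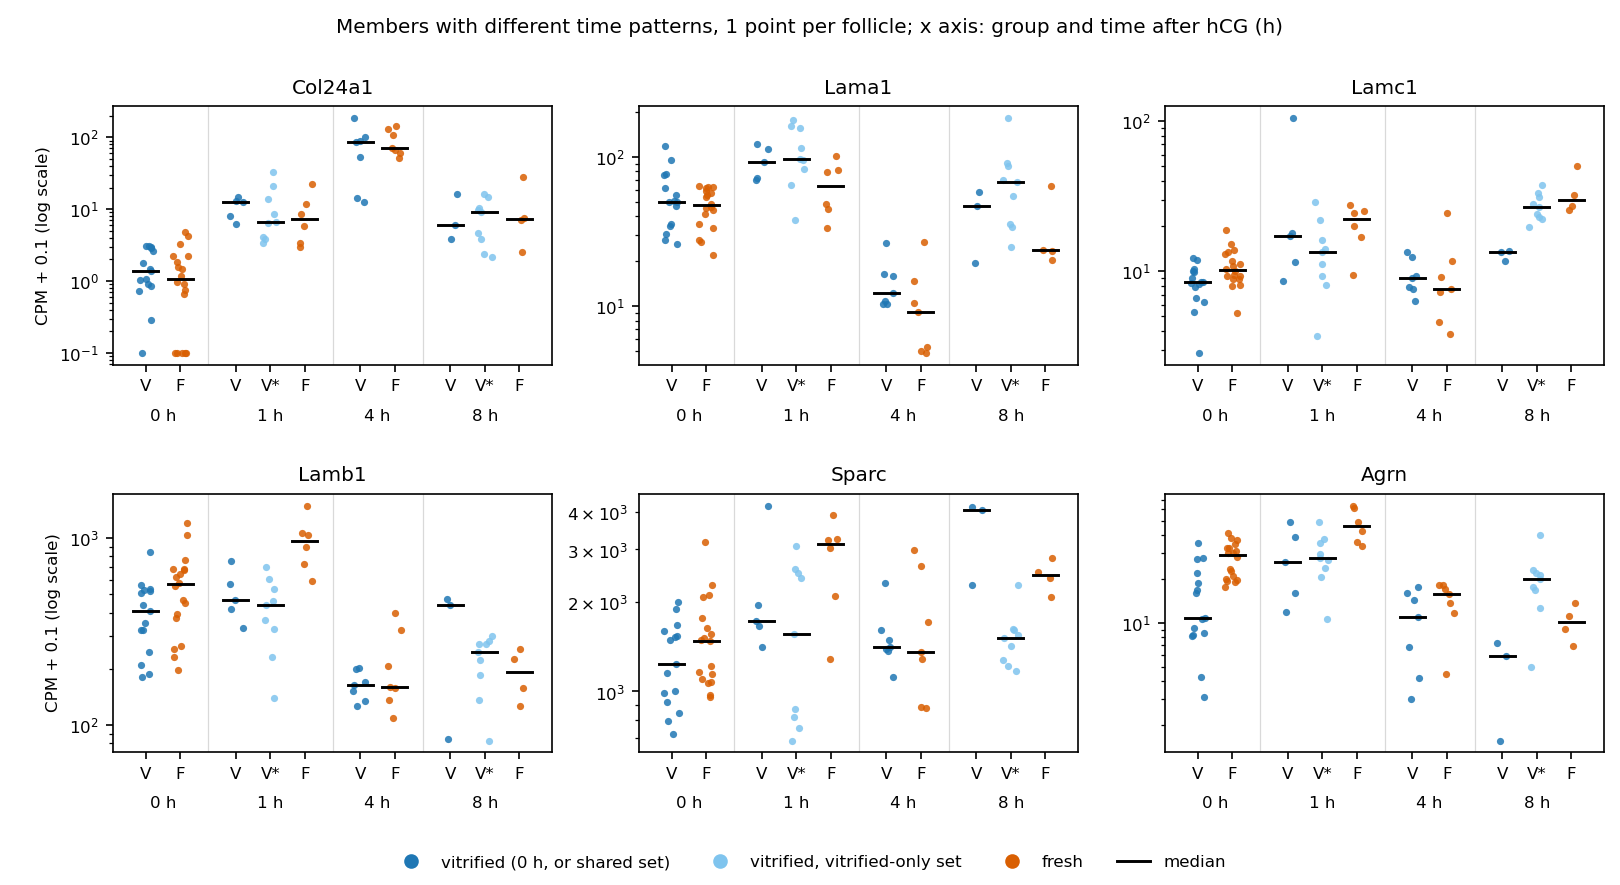
CPM + 0.1 of 6 members (log axis) by time after hCG, 1 point per follicle. V is vitrified, V* the vitrified-only set and F fresh, with a bar at the median. Col24a1 peaked at 4 h, where Lama1 and Lamb1 were lowest in fresh follicles.

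Promoter sequence is shown for Col24a1, which was called higher at 4 h, for Col1a2 as a fibrillar collagen gene of the falling group, and for the neighbours Col4a1 and Col4a2, whose levels moved together. The windows run from 250 bases before to 50 after the RefSeq start of each gene on GRCm38.p6, and 43 of the 59 members have such a window. Capitals in the Col24a1 window mark TGACGTCA, the palindromic cAMP response element. Capitals in the other windows mark GGGCGG and CCAAT on either strand (CCGCCC and ATTGG read from the opposite strand). The windows lie on the plus strand at chr3:145292222-145292521 for Col24a1, on the plus strand at chr6:4505368-4505667 for Col1a2, on the minus strand at chr8:11312777-11313076 for Col4a1 and on the plus strand at chr8:11312555-11312854 for Col4a2.
Col24a1: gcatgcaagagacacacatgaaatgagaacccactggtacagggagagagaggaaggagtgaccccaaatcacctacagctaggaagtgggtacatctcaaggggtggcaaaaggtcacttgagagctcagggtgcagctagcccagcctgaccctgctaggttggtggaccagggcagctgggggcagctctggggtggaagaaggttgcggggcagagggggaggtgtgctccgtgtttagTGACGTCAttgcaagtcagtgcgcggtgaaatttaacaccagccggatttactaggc
Col1a2: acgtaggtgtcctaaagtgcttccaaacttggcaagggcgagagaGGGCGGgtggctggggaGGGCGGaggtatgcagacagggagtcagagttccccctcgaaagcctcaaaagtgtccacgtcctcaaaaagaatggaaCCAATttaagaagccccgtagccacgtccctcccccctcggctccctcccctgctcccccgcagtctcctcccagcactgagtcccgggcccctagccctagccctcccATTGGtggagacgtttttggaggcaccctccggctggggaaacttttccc
Col4a1: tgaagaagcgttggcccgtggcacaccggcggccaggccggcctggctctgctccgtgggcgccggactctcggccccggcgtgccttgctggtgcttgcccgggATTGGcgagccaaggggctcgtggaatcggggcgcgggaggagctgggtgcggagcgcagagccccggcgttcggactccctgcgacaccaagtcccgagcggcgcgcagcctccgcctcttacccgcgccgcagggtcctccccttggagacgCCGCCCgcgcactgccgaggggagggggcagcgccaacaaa
Col4a2: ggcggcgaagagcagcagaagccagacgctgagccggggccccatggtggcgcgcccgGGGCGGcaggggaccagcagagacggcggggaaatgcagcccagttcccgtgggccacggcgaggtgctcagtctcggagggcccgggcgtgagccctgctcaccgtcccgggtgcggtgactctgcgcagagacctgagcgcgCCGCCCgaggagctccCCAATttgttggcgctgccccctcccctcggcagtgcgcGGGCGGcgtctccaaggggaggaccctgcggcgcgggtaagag

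TGACGTCA lay at bases 244 to 251 of the Col24a1 window, ending on the start itself, and none of the other 42 member windows held it; 1.79% of all 32851 promoter windows of that length do. The opening bases of that motif, TGACG, which overlap it and were also searched on both strands, were in 6 of 43 members and 20.8% of all windows. GGGCGG was in 29 of the 43 and 35.7% of all, CCAAT in 15 and 37.4%, TATAAA in 7 and 13.6%, and TGTGGT in 5 and 16.8%. Col4a1 and Col4a2 lie head to head: their first transcribed bases in the GENCODE annotation are at 11312826 and 11312805, and their windows share 78 bases. Their windows were also GC-rich, at 74% and 73.7%, beside 56.3% for Col24a1 and 61% for Col1a2. A match describes the letters of the window and nothing about binding.

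Among the laminin α chains, Lama1 fell at 4 h and was higher again at 8 h. Lama1 (chromosome 17, 67697259 to 67822647, plus strand) encodes the α1 chain. In vitrified follicles of the shared set it had 69.9, 72.2, 121, 92.5 and 114 CPM at 1 h, then 10.2, 12.1 and 26.3 CPM (lowest, median, highest) at 4 h, and 46.9, 58.3 and 19.3 CPM at 8 h. In fresh follicles it had 33.1, 64.2 and 102 CPM at 1 h, then 4.76, 8.97 and 27 CPM at 4 h, and 23.8, 20.4, 23.5 and 63.5 CPM at 8 h. The 4 h and 1 h follicles did not overlap in either kind. At 4 h against 1 h the difference was -2.70 ± 0.39 in vitrified (edgeR adjusted p = 1.43e-08) and -2.54 ± 0.39 in fresh follicles (edgeR adjusted p = 5.07e-08). At 8 h against 4 h it was 1.52 ± 0.43 (edgeR adjusted p = 0.00374) and 1.57 ± 0.41 (edgeR adjusted p = 0.00161). The 8 h and 4 h follicles overlapped, and the call was lost without the vitrified follicle with 58.3 CPM (1.22, edgeR adjusted p = 0.0589) or without the fresh follicle with 63.5 CPM (0.99, edgeR adjusted p = 0.0779).

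The other α chains took other courses. Lama4, the chain of vascular laminins, had 2.43, 8.11 and 16 CPM (lowest, median, highest) in vitrified follicles at 4 h, against 34.9, 19.6, 28.2, 13.7 and 12.6 CPM at 1 h. Fresh follicles had 1.3, 6.34 and 13.1 CPM at 4 h, against 18.8, 34.7 and 43.0 CPM at 1 h. The fresh groups did not overlap, and the vitrified groups did. The differences were -1.37 ± 0.37 (edgeR adjusted p = 0.00128) and -2.28 ± 0.36 (edgeR adjusted p = 1.63e-07). Lama2, the chain of muscle laminins, fell by 1.85 and 2.09 in the same comparison. Lama5, the broadly expressed α5 chain, was called in none of the time comparisons, with 4 h against 1 h differences of -0.41 ± 0.52 in vitrified and -0.72 ± 0.52 in fresh follicles.

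Both tested β chains fell between 1 h and 4 h. Lamb1 (chromosome 12, 31265234 to 31329644, plus strand) encodes the β1 chain. It had 127, 164 and 202 CPM (lowest, median, highest) in vitrified follicles at 4 h, against 570.4, 332, 758, 419 and 468 CPM at 1 h. The values in fresh follicles were 109, 161 and 396 CPM at 4 h, against 591, 967 and 1491 CPM at 1 h. Neither pair of groups overlapped. The differences were -1.63 ± 0.36 (edgeR adjusted p = 0.000127) and -2.18 ± 0.36 (edgeR adjusted p = 3.09e-07). Lamb2, its counterpart in synaptic and kidney basement membranes, fell by 0.62 (edgeR adjusted p = 0.0236) and 0.55 (edgeR adjusted p = 0.0425), calls that were lost in 5 of 12 alternatives in vitrified and 3 of 7 in fresh follicles.

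The γ1 chain Lamc1 (chromosome 1, 153218922 to 153332786, minus strand), a part of most laminins, was high at 8 h in fresh follicles. In vitrified follicles of the shared set it had 11.6, 13.3 and 13.5 CPM at 8 h, against 6.29, 8.98 and 13.3 CPM (lowest, median, highest) at 4 h, a difference of 0.45 ± 0.41 that was not called. In fresh follicles it had 27.2, 31.9, 25.4 and 50.1 CPM at 8 h, against 3.7, 7.55 and 24.5 CPM at 4 h, and the groups did not overlap. The difference in fresh follicles was 1.78 ± 0.37 (edgeR adjusted p = 5.36e-05). At 8 h the 3 vitrified follicles thus lay below all 4 fresh follicles. That vitrified minus fresh difference was -1.39 ± 0.45 (edgeR adjusted p = 0.0922), and it passed when only the compared libraries were fitted (-1.46, edgeR adjusted p = 0.0279) and with limma on log2(TPM + 1) (-0.73, adjusted p = 0.000519). The 9 vitrified 8 h follicles of the vitrified-only set had 19.6, 26.8 and 37.3 CPM, a range that overlapped that of the fresh follicles.

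For Lamc1 at 1 h, 1 vitrified follicle of the shared set had 105 CPM beside 8.53, 11.4, 17.9 and 17.2 CPM. Without that follicle the difference at 1 h against 0 h was 0.72, beside 1.91, and was still called (edgeR adjusted p = 0.0285). At 4 h against 1 h the difference was -0.56, beside -1.75, and the call was lost (edgeR adjusted p = 0.146). Lamc3, the γ3 chain, fell by 1.79 in vitrified and 2.11 in fresh follicles at 4 h against 1 h.

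The main chains of type IV collagen, the network former, had wide ranges and were not called between 1 h and 4 h. Col4a1 (chromosome 8, 11198423 to 11312826, minus strand) had 26.2, 137 and 437 CPM (lowest, median, highest) in vitrified follicles at 4 h, against 299.6, 86.8, 766, 224 and 354 CPM at 1 h. Fresh follicles had 76.4, 222 and 1182 CPM at 4 h, against 162, 645 and 1314 CPM at 1 h. The ranges overlapped widely, and the differences of -1.06 ± 0.73 and -0.78 ± 0.70 were not called. Col4a2 had -0.92 ± 0.68 and -0.65 ± 0.65. Col4a5, a chain of another type IV network, did fall, by 1.34 in vitrified and 1.55 in fresh follicles at 4 h against 1 h, with medians of 1.94 and 1.3 CPM at 4 h. At 8 h against 1 h it fell by 2.92 in the vitrified-only set and 2.72 in fresh follicles. Exons of Col4a1 and Col4a2 overlap on opposite strands by 22 bases, and the libraries do not keep strand, so reads of that stretch could count for either gene.

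The linkers and proteoglycans fell by 8 h in fresh follicles. Hspg2, perlecan, had 159.7, 216 and 530.5 CPM (lowest, median, highest) in the vitrified-only set at 8 h, against 157, 574 and 986 CPM at 1 h. The values in fresh follicles were 112, 74.0, 119.8 and 139.8 CPM at 8 h, against 238, 626 and 1076 CPM at 1 h. The groups overlapped in the vitrified-only set and did not in fresh follicles. Hspg2 fell by 1.19 (SE 0.35, edgeR adjusted p = 0.00246) and by 2.53 (SE 0.52, edgeR adjusted p = 3.38e-05). Nid1, a nidogen that joins laminin to type IV collagen, had -0.81 ± 0.53 in the vitrified-only set and fell by 2.09 in fresh follicles, and Nid2 fell by 2.08 and 2.69. Agrn had -0.54 ± 0.31 in the vitrified-only set and fell by 2.21 in fresh follicles. Of the collagens that carry endostatin-type domains, Col15a1 fell by 1.23 and 1.85, and Col18a1 had 0.24 ± 0.50 in the vitrified-only set and fell by 1.66 in fresh follicles. In the vitrified-only set the call of Hspg2 was lost with total counts (-0.39) and with limma on log2(TPM + 0.1) and log2(TPM + 1) (-0.05 and -0.06), and that of Col15a1 in 5 of 6 alternatives. The calls of Nid1, Col15a1 and Col18a1 in fresh follicles were lost without single 8 h follicles, at adjusted p-values of up to 0.132.

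Type VI collagen, a microfibril former around cells, held the largest fall of any tested collagen at 8 h against 1 h, in Col6a2 for the vitrified-only set and in Col6a1 for fresh follicles. Col6a1 (chromosome 10, 76708792 to 76726168, minus strand) had 5.29, 14.7 and 27.7 CPM (lowest, median, highest) in the vitrified-only set at 8 h, against 30.6, 149 and 508 CPM at 1 h. In fresh follicles it had 9.43, 5.94, 26.4 and 12.9 CPM at 8 h, against 32.6, 238 and 359 CPM at 1 h. Neither pair of groups overlapped. The differences were -3.80 ± 0.55 (edgeR adjusted p = 9.27e-09) and -4.04 ± 0.81 (edgeR adjusted p = 2.44e-05). Its partner chains Col6a2 and Col6a3 fell by 3.94 and 2.22 in the vitrified-only set and by 3.63 and 3.2 in fresh follicles. Col12a1, which binds to fibril surfaces, went the other way in the vitrified-only set, with 6.18, 9.02 and 14.1 CPM at 8 h against 0, 1.98 and 4.17 CPM at 1 h, and rose by 2.07 ± 0.55 (edgeR adjusted p = 0.000764). In fresh follicles its difference was -0.15 ± 0.70.

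Among the interstitial and matricellular genes, Ogn (chromosome 13, 49608046 to 49624501, plus strand), a small leucine-rich proteoglycan also called osteoglycin, was at or near 0 CPM by 8 h. In the vitrified-only set 8 of 9 follicles were at 0 at 8 h and 1 had 0.193 CPM, against 1.04, 3.15 and 25.6 CPM (lowest, median, highest) at 1 h. Fresh follicles had 0.534, 0.129, 0.978 and 0 CPM at 8 h, against 5.32, 6.68 and 8.72 CPM at 1 h. Neither pair overlapped, and the adjusted p-values from edgeR were 4.33e-12 and 4.02e-05. The fitted difference in fresh follicles was -4.33 ± 0.91. Fbn1, the microfibril protein fibrillin, fell by 2.50 in the vitrified-only set and 2.18 in fresh follicles. Postn, periostin, had -0.90 ± 0.93 in the vitrified-only set and -2.82 ± 1.19 in fresh follicles (edgeR adjusted p = 0.0421), a call lost without fresh replicate 2 or 4. Fn1, fibronectin, rose at 1 h against 0 h, by 1.53 in vitrified and 1.71 in fresh follicles; in vitrified follicles it had 1.09 without 1 h replicate 3 (edgeR adjusted p = 0.119).

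Sparc (chromosome 11, 55394500 to 55423183, minus strand) was higher at 8 h than at 4 h in vitrified follicles of the shared set. In the shared set it had 2271, 4065 and 4162 CPM at 8 h, against 1116, 1405 and 2324 CPM (lowest, median, highest) at 4 h. The values in fresh follicles were 2817, 2520.3, 2411 and 2083 CPM at 8 h, against 882, 1362 and 2993 CPM at 4 h. Both pairs overlapped. The differences were 1.20 ± 0.35 (edgeR adjusted p = 0.0044) and 0.55 ± 0.33 (edgeR adjusted p = 0.183). At 8 h against 1 h its difference in the vitrified-only set was -0.16 ± 0.25, and it turned to 0.63 with total counts (edgeR adjusted p = 0.0353). Vitrified 8 h follicles of that set lay below those of the shared set (-1.21, edgeR adjusted p = 0.00465). Their highest value was 2270.6 CPM and the next 1625.3 CPM.

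Vitrified and fresh follicles differed in 1 member by edgeR. At 0 h Agrn had 2.98, 10.7 and 34.9 CPM (lowest, median, highest) in vitrified and 17.6, 28.9 and 41.3 CPM in fresh follicles. The ranges overlapped, with the vitrified median below the lowest fresh value. The difference was -0.87 ± 0.23 (edgeR adjusted p = 0.0447), the only member call among the 0.967% of genes called at 0 h. That call was lost without the vitrified 0 h libraries of 682200 and 723087 counts (edgeR adjusted p = 0.104). At 1, 4 and 8 h edgeR called 0 members, against 0.555%, 0.118% and 2.06% of all genes; 6, 5 and 2 members had an unadjusted p under 0.05, and DESeq2 also called 0 at each. With limma on log2(TPM + 0.1), 9 members were lower at 0 h, among them Bgn (-1.46, adjusted p = 0.0396), Col1a2 (-1.50, adjusted p = 0.0206) and Ogn (-1.29, adjusted p = 0.0196), for which edgeR gave -1.04, -1.10 and -1.12 without a call. On that scale 10.8% of all genes were lower and 0.286% higher, and the median of all genes was -0.243.

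Below the threshold the signs leaned lower in vitrified follicles at 0, 1 and 4 h and higher in the 3 of the shared set at 8 h. The log2 difference, vitrified minus fresh, was below 0 in 31 of 36 members at 0 h, 31 at 1 h and 30 at 4 h, and above 0 in 32 at 8 h. Single follicles weigh on the 8 h signs. In vitrified replicates 1, 2 and 3 Col1a1 had 7.46, 102 and 4.06 CPM, beside 8.10 to 35.2 CPM in fresh follicles. Col3a1 (62.2, 290 and 15.3 CPM) and Nid1 (50.6, 115 and 8.93 CPM) were also highest in replicate 2, whereas Lama5 was not (10.4, 8.93 and 7.79 CPM). The medians were -0.537, -0.744, -0.611 and 0.775, beside -0.0177, 0.0494, 0.0104 and 0.0963 over all genes. Fibrillar medians were -0.717, -0.763, -0.812 and 0.665, and basement membrane medians -0.349, -0.6, -0.371 and 0.773. Many members rise and fall together from follicle to follicle, so these counts are not counts of independent genes. List medians of some other cell types leaned the same way. The median was -0.473, -0.585, -0.645 and 0.874 over 12 tested theca and stroma markers. It was -1.25, -1.39, -1.37 and 1.01 over 7 endothelial markers, and -0.417, -0.98, -2.31 and 1.17 over 3 surface epithelium markers. The theca and stroma list was mixed. At 0, 1 and 4 h mean Cyp17a1 was higher in vitrified follicles (161, 351 and 51.3 against 69.8, 158 and 19.2 CPM in fresh follicles). So was mean Insl3 (79.7, 72.3 and 32.3 against 32.8, 31.4 and 14.9 CPM). Mean Acta2 was lower (65, 71.6 and 36.2 against 152, 253 and 124 CPM). The vitrified 1 h values are of the shared set. The single tested immune marker had -1.51, -4.20, -1.02 and 0.65. Granulosa markers did not show that pattern, with medians over 10 markers of 0.156, 0.033, 0.18 and 0.225. Over 9 oocyte markers the medians were 0.012, -0.285, -0.0933 and 0.469, with the signs of that pattern except at 0 h. Of all these markers the granulosa genes Fshr (0.95) and Inha (0.39) were called, both higher in vitrified follicles at 0 h. The part of other cell types in the result was not tested. The endothelial markers summed to medians of 11.634 CPM in vitrified and 25.126 CPM in fresh follicles at 0 h.

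Testing the steps themselves gave no member either. The vitrified minus fresh difference of the step was called in 0 of 36 members for 0 h to 1 h, 1 h to 4 h and 4 h to 8 h, against 0.16%, 0.0421% and 0.993% of all genes; 1, 0 and 8 members had an unadjusted p under 0.05, and DESeq2 called 0. For the last step the median over members was 1.24, with 30 of 36 above 0. That step depends on single follicles among the 3 vitrified ones at 8 h. Without replicate 1, 2 or 3, 9, 1 and 15 members had an unadjusted edgeR p under 0.05. Intervals were wide: for Col1a1 the last step differed by 2.43 ± 1.32.

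Vitrified follicles of the vitrified-only and the shared set were also compared with each other, since they share time and treatment as labelled. At 1 h edgeR called 0 members, against 1.37% of all genes, with 2 at an unadjusted p under 0.05, and DESeq2 called 1. At 8 h it called 6, against 23.4% of all genes: Agrn (2.05 ± 0.50) and Lamc1 (1.08 ± 0.41) were higher in the vitrified-only set, and Bgn (-2.91 ± 0.80), Col15a1 (-1.78 ± 0.68), Lama4 (-1.52 ± 0.40) and Sparc (-1.21 ± 0.33) lower. Sparc had 1174, 1516 and 2270.6 CPM (lowest, median, highest) in the vitrified-only set, against 2271.2, 4065 and 4162 CPM in the shared set, so the groups touched without overlapping. None of the 6 calls held under every alternative, and the shared set has only 3 such follicles.

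**Figure D4:**
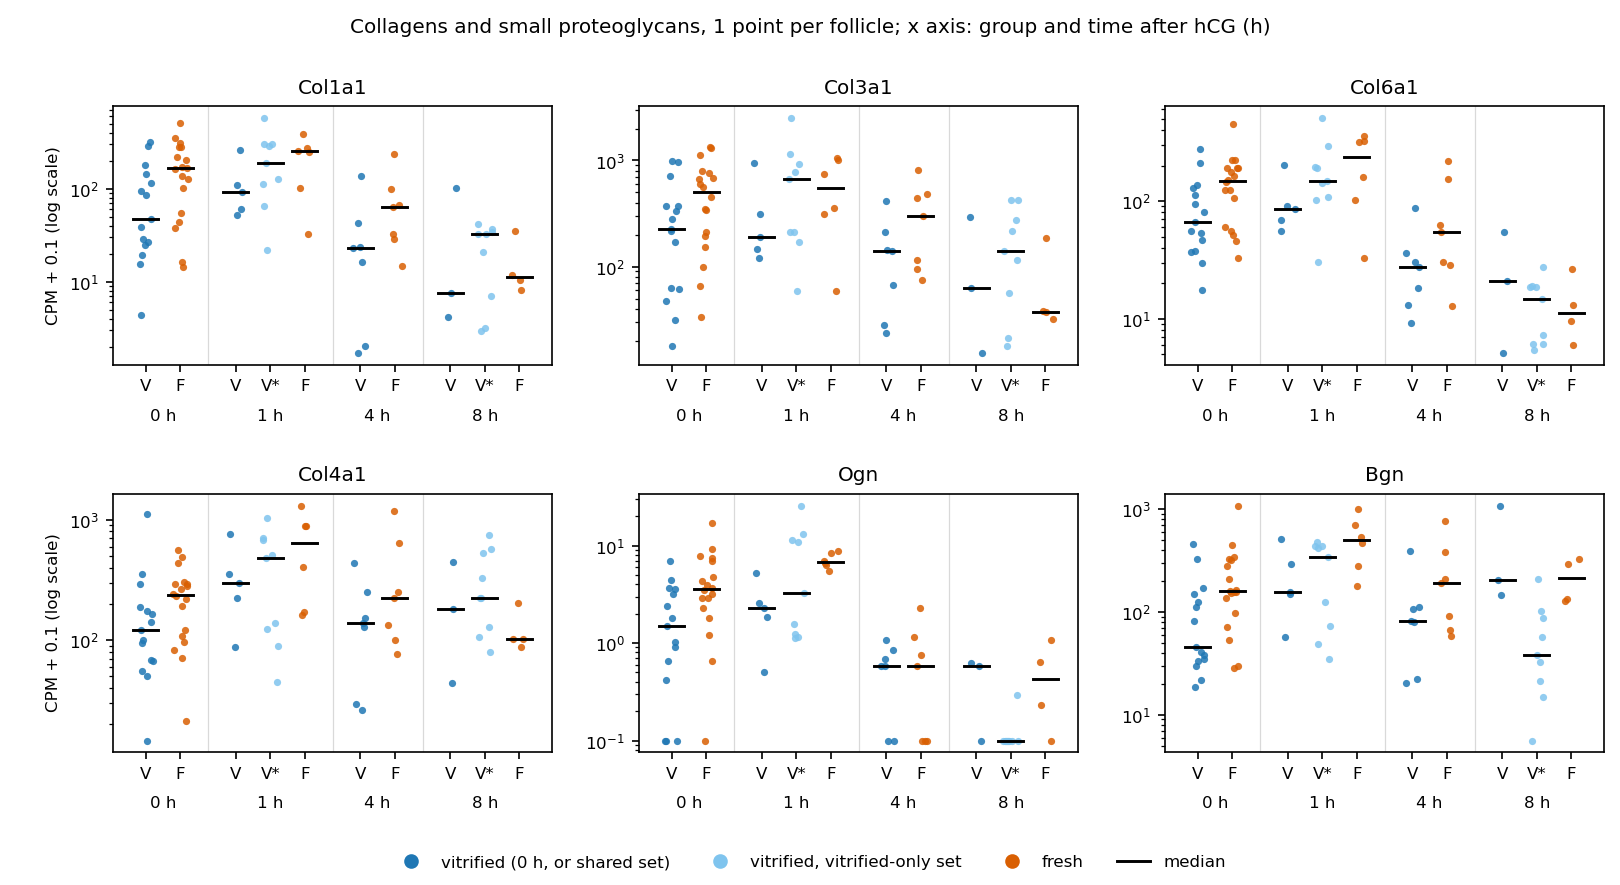
CPM + 0.1 of 6 members (log axis) in each follicle by time. V is vitrified, V* the vitrified-only set and F fresh. Col1a1 ranged from 4.26 to 321 CPM in vitrified and from 14.5 to 509 CPM in fresh follicles at 0 h.

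The matrix genes varied strongly between follicles of one group. At 0 h, over members with a mean of at least 10 CPM, the median coefficient of variation of the fibrillar collagens was 88.9% in vitrified and 68.9% in fresh follicles, and that of the basement membrane genes 56.5% and 45.1%. Over all genes of that level it was 28.2% and 27.2%. Col1a1 had 4.26, 47.2 and 321 CPM (lowest, median, highest) in vitrified and 14.5, 167 and 509 CPM in fresh follicles. Within the basement membrane class Lamb2 (26.6% and 29.6%) lay near the value over all genes. Lama1 had 47.5% in vitrified and 28.9% in fresh follicles, and Col4a1 (135% and 62.1%) and Col15a1 (98.6% and 98.8%) lay far above it.

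Collagen chains varied together across follicles at 0 h, within one molecule and between molecules, while no such relation was detected for the only laminin pair computed. Over 15 vitrified and 18 fresh follicles Pearson's r of log2(CPM + 1) for Col4a1 with Col4a2 was 0.979 and 0.959 (Spearman's rho 0.975 and 0.959). For Col6a1 with Col6a2 it was 0.966 and 0.947 (rho 0.971 and 0.942), and for Col1a1 with Col1a2 0.921 and 0.977 (rho 0.925 and 0.955). Between different molecules, Col1a1 with Col3a1 gave 0.94 and 0.935 (rho 0.954 and 0.94). Each of these had a two-sided permutation p of 1e-05 for r, the smallest that 100000 resamples can give, and an adjusted p of 1.56e-05 over the 14 relations computed. For Col1a1 with Col4a1 r was 0.883 and 0.915 (rho 0.854 and 0.87, permutation p of r 2e-05 and 1e-05). Lamb1 and Lamc1, which share laminin trimers, gave r of 0.283 and -0.026 (rho of 0 and -0.0815, permutation p of r 0.312 and 0.918). Mean Lamc1 was below 10 CPM in vitrified follicles at 0 h. In fresh follicles its coefficient of variation was 29.1%, beside 62.1% for Col4a1. Low counts and a narrow range can both lower r, so this pair cannot be set evenly beside the collagen pairs. Leaving out the 2 follicles farthest from the median left r at 0.8 or more for every pair except the laminin pair, where it was -0.125 and -0.0351.

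The summed theca and stroma markers were set against Col1a1 alone. At 0 h r was 0.103 in vitrified follicles (rho -0.0214, permutation p of r 0.713, adjusted 0.768) and 0.626 in fresh follicles (rho 0.591, permutation p of r 0.00546, adjusted 0.00695). Without the 2 follicles farthest from the median marker sum r was 0.358 and 0.388. Leaving them out also narrows the range of that sum, and these values were not tested. All points of a group share the 0 h library set.

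**Figure D5:**
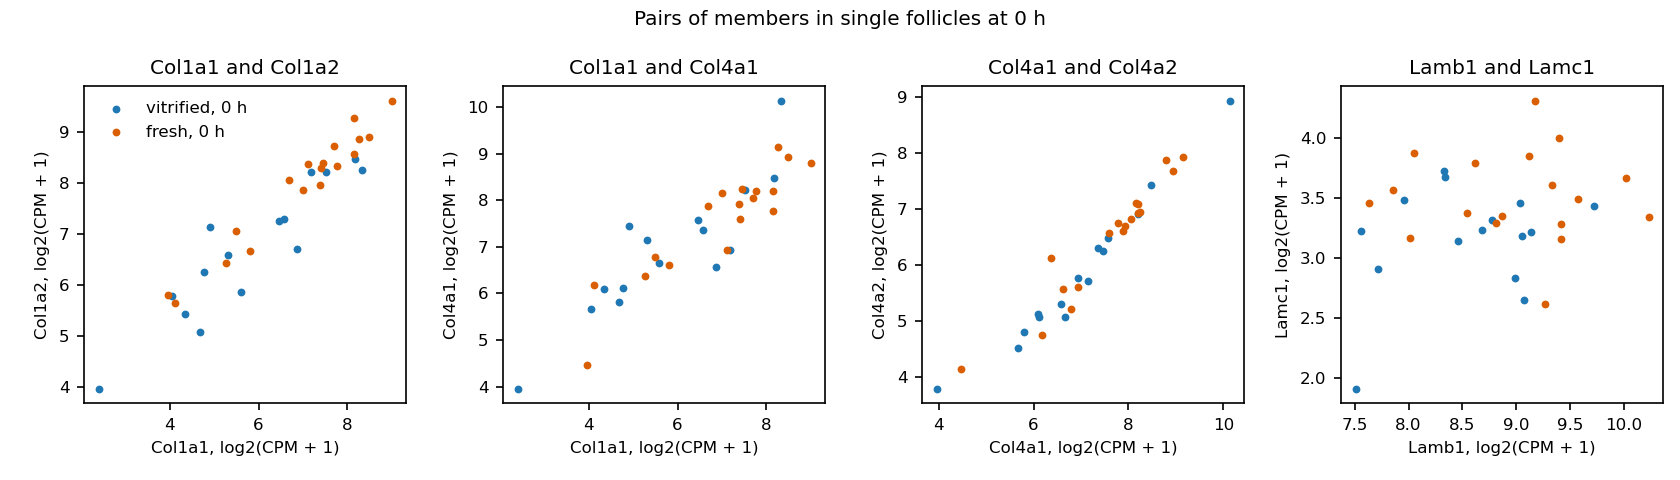
CPM of paired chains in each 0 h follicle (log2(CPM + 1) axes), vitrified and fresh follicles in separate colours. Col4a1 and Col4a2 lie on a line (r of 0.979 in vitrified and 0.959 in fresh follicles), Lamb1 and Lamc1 do not (0.283 and -0.026).

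Genes that process collagen, bind it or cut it were counted in lists. At 1 h against 0 h, 12 of 25 tested collagen processing enzymes were higher in vitrified and 9 in fresh follicles, with 0 lower in either, beside 21.5% and 19% of all genes higher and 22% and 23.1% lower. With total counts 3 and 2 of the enzymes were higher and 2 and 3 lower. Tll1, a protease that trims procollagen, rose by 6.58 in vitrified and 3.88 in fresh follicles, and Adamts3, a procollagen peptidase, by 4.37 and 3.67; both were also called higher with total counts. At 4 h against 1 h, 18 and 14 of the 25 were lower and 4 and 3 higher, beside 25.9% and 24.5% of all genes lower and 20.6% and 21.9% higher, and Adamts3 rose further by 3.04 and 3.75. At 8 h against 4 h the collagen chaperone Serpinh1 rose by 2.42 and 1.56, and the proline hydroxylase P4ha2 by 2.26 and 1.79.

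Of 21 tested proteases and inhibitors, 12 were higher in vitrified and 11 in fresh follicles at 1 h against 0 h, and 0 lower, beside the same shares of all genes; with total counts 9 and 8 were higher and 1 and 2 lower. Adamts1, a versican-cleaving protease that takes part in ovulation in mice, rose by 5.15 and 4.52, and the plasminogen activator Plau by 4.71 and 4.51. The inhibitor Timp1 rose by 3.42 and 3.77 at 4 h against 1 h, when Adamts1 fell by 3.74 and 3.34. Of 22 tested matrix receptors, 9 were higher in vitrified and 8 in fresh follicles at 1 h, led by the collagen-binding integrin chain Itga2 (4.95 and 4.39); with total counts 6 and 4 were higher and 1 lower in each. The syndecan Sdc1 rose by 5.33 and 5.11 at 4 h. Of 31 tested other matrix proteins, 12 in vitrified and 13 in fresh follicles were lower at 4 h against 1 h, beside 25.9% and 24.5% of all genes, while the cumulus matrix proteoglycan Vcan rose by 2.91 and 3.32.

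Vitrified and fresh follicles differed in 8 of the 99 tested genes of these 4 lists at 0 h, in 2 at 1 h and in 4 at 8 h, beside 0.967%, 0.555% and 2.06% of all genes. At 0 h the procollagen protease Bmp1 was lower in vitrified follicles by -1.03 ± 0.23 (edgeR adjusted p = 0.0066), as were Lum (-1.55), Smoc2 (-0.91), Mfap2 (-0.70) and the integrin chain Itgb3 (-1.58). The collagen receptor kinase Ddr1 (0.74), the protease inhibitor Reck (0.80) and Tnxb (1.95) were higher. At 1 h Tll1 (2.47) and Ddr1 (1.33) were higher, and both calls were lost with total counts, as was that of Ddr1 at 0 h. At 8 h the lysyl hydroxylase Plod2 (-1.24), Itgb1 (-1.90), Igfbp7 (-4.05) and Ltbp1 (-1.93) were lower, and no listed gene was called at 4 h.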

How the data were processed

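Single follicles were sequenced, 1 library each. The authors deposited a table of estimated counts per gene, not whole numbers, and a table of log2 values that the authors named log2(TPM + 1). Per the submitters' processing notes, Partek, Bowtie2, HISAT2 and DESeq2 were used with mm10; versions and settings are not given in the sources used here.

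Estimated counts were rounded, filtered (filterByExpr, minimum count 10) and fitted with edgeR 4.0.16 (quasi-likelihood test, TMM) in R 4.3.3, with 1 mean for each of 10 combinations of group and library set over all 83 libraries. The 17 comparisons were adjusted by Benjamini-Hochberg over 11889 genes. CPM are unrounded estimated counts over TMM-scaled library sizes. DESeq2 1.42.0, limma 3.58.1 on log2(TPM + 1) and log2(TPM + 0.1), total-count scaling, no filter, 1 term for the vitrified-only set, the compared libraries alone and leaving out each follicle of small groups were alternatives; for the other gene lists total-count scaling was added after seeing the data. The script was tested on simulated counts.

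Gene positions come from GENCODE on GRCm38, where exons of 11 tested members overlap another gene; Nextera XT libraries do not keep strand, so such reads cannot be assigned with certainty. Genes described in full were listed by name: the main chains and linkers that pass the filter, and in each comparison up to 10 called members with the largest change; of other lists, up to 4 called genes a comparison. Genes named as overlapping, as lost or as kept in an alternative were named from those results. Members and lists were chosen with earlier results of these data known. Counts without molecular identifiers are not independent molecules.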

Additional observations from a re-analysis of the deposited data

Results flagged for a closer look

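Among 203 combinations of a tested member and a group of 4 to 10 follicles, over 29 members, 11 had a follicle that stood apart from the rest on the log2(CPM + 1) scale, and 41 on the linear scale; chance flags about 1 in 20 groups. On the high side, 1 vitrified 1 h follicle of the shared set had 632 CPM of Col1a2 beside 196 CPM for the next, and another had 105 CPM of Lamc1 beside 17.9 CPM. In fresh follicles at 8 h, 1 had 186 CPM of Col3a1 beside 38 CPM, and 1 had 63.5 CPM of Lama1 beside 23.8 CPM. In the vitrified-only set at 8 h, 1 follicle had 2270.6 CPM of Sparc beside 1625.3 CPM, 1 had 0.193 CPM of Ogn with all others at 0, and 1 had 6.97 CPM of Postn beside 0.757 CPM. A vitrified 4 h follicle had 0.528 CPM of Postn with the others at 0. On the low side, 1 fresh 1 h follicle had 0.827 CPM of Col4a5 beside 5.4 CPM, 1 fresh 4 h follicle had 4.38 CPM of Agrn beside 11.5 CPM, and 1 vitrified 1 h follicle of the vitrified-only set had 24.3 CPM of Col6a2 beside 185 CPM.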

How the results depend on the processing

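Member calls were counted under each alternative, and a comparison not given here kept its count within 1.5 times. With vitrified against fresh at 0 h (1 call), 9 were called with limma on log2(TPM + 0.1) and 11 on log2(TPM + 1). On those scales 10.8% and 12.7% of all genes were lower. Calls fell to 0 with 1 term for the vitrified-only set or without the filter. They also fell to 0 without the vitrified 0 h libraries of 682200 and 723087 counts, an alternative chosen after seeing the data. At 8 h (0 calls), 1 was called with the compared libraries only and 1 with limma on either scale. For 1 h against 0 h, vitrified follicles (7) gave 4 on log2(TPM + 0.1), 2 on log2(TPM + 1) and 4 with total counts, and fresh follicles (12) gave 6, 7 and 4. For 4 h against 1 h, vitrified follicles (19) gave 7 on log2(TPM + 1). For 8 h against 4 h, vitrified follicles (5) gave 8 with 1 set term and 9 with limma on either scale or total counts, and fresh follicles (7) gave 4 with limma on either scale. For 8 h against 1 h, fresh follicles (26) gave 17 on log2(TPM + 0.1). The sets at 1 h (0) gave 1 with DESeq2 and 1 without the filter, and the step between 4 h and 8 h (0) gave 1 on log2(TPM + 1). The cause was not tested.

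Leaving out 1 follicle at a time gave 5 to 7 calls for 1 h against 0 h, 14 to 19 for 4 h against 1 h and 3 to 7 for 8 h against 4 h in vitrified follicles, 4 to 10 for 8 h against 4 h and 20 to 25 for 8 h against 1 h in fresh follicles, 2 to 6 between the sets at 8 h and 0 to 1 at 1 h, and 0 to 0 for vitrified against fresh at 1 h and 8 h and for the 3 steps. Calls moved by over 1.5 times without fresh 8 h replicate 1 (2 higher, 2 lower) or 4 (1 and 3) and without vitrified 8 h replicate 2 (1 and 2); between the sets at 8 h they did without vitrified replicate 2 (1 and 1) or 3 (0 and 2).

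At 8 h against 1 h in the vitrified-only set, 4 members changed sign: Col4a2 to 1.25 on log2(TPM + 0.1) and 0.89 on log2(TPM + 1), Lamb1 to 0.17 and 0.16, Lamb2 to 0.88 and 0.85 and to 0.55 with total counts, and Sparc to 1.10 and 1.09 and to 0.63. Called members that kept their call in every alternative were 1 of 7, 5 of 19 and 2 of 5 over the 3 steps in vitrified follicles, 1 of 12, 14 of 18 and 2 of 7 in fresh follicles, and 13 of 22 in the vitrified-only set and 16 of 26 in fresh follicles at 8 h against 1 h. No paired analysis was possible because replicates are numbered in accession order and nothing in the labels ties a vitrified to a fresh follicle. The 23 untested members lie below what this depth can compare, and the groups of 3 to 5 follicles at 8 h and 1 h leave wide errors, for example an SE of 1.07 for Col1a1 in fresh follicles at 8 h against 1 h.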

Other observations

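The untested members were rare in every group and most were missing from many libraries. Lama3, a laminin α chain, was at 0 in 58 of 83 libraries and never exceeded 1.13 CPM. The type IV chains Col4a3 and Col4a4, known from the kidney glomerulus, were at 0 in 58 and 38 libraries, and Col4a6 in 17. Among fibrillar collagens, Col5a3 was at 0 in 29 libraries and Col11a2 in 50.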
